A study of Mus musculus with 8 samples.

Results

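Astrocyte markers are 10 genes whose mRNAs are used to recognise astrocytes, the star-shaped glia that buffer ions, clear glutamate, feed neurons and wrap blood vessels. They are a list of gene symbols set with earlier results of these data known, and all 10 (Gfap, Aqp4, Aldh1l1, Gja1, Gjb6, Aldoc, S100b, Sox9, Fgfr3 and Agt) were found among 19558 genes in a table of estimated RNA-seq counts per transcript. The RNA was polyadenylated RNA of hippocampus from wild-type mice labelled C57BL/6 KP, at postnatal day 40. In the KU55933 group, 4 mice had received KU55933, a small molecule that blocks ATM (a kinase of the DNA damage response), through the nose under anesthesia at 7.5 mg/kg. In the vehicle group, 4 mice had received DMSO (4% in saline) by the same route, and each mouse gave 1 library. DMSO at 4% is listed for the KU55933 mice too, and the figure of 7.5 mg/kg is listed for the vehicle mice too. Neither the sex of the mice nor the time from dosing to collection is given in the sources used here.

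In the hippocampus, astrocytes end in feet on vessels, where the water channel encoded by Aqp4 is concentrated, and join into networks through gap junctions built from the connexins of Gja1 and Gjb6. Their cytoskeleton holds the intermediate filament protein of Gfap, which is known to accumulate when astrocytes react to injury. Their identity is set in development by transcription factors that include Sox9, and growth factor signals reach them through receptors such as that of Fgfr3.

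Libraries held 34190440 to 37499003 estimated counts in KU55933 and 40586998 to 46630341 in vehicle. Prox1, a marker of dentate granule neurons, lay between 138 and 202 CPM in KU55933 and between 143 and 216 CPM in vehicle, and all 10 astrocyte markers were detected in every library. CPM here is counts scaled to a common library size after TMM normalisation. The libraries also differed in base composition. The slope of expression on the exonic GC content of genes was negative in every KU55933 library, from -0.344 to -0.115 log2 units per 10 percentage points, and positive in every vehicle library, from 0.134 to 0.269. Mitochondrial transcripts took 5.08 to 5.48% of counts in KU55933 and 4.36 to 4.77% in vehicle, with no overlap, and the part of this difference in the results was not tested. The summed level of 8 choroid plexus markers was 1175 and 1251 CPM in KU55933 1 and 2, and 75.9 and 59.1 CPM in KU55933 3 and 4, against 52.9 to 114 CPM in vehicle.

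Gfap is made as alternative mRNAs whose proteins differ at the carboxyl end, and 2 of its coding transcripts bear on the results. The main transcript is ENSMUST00000067444, and ENSMUST00000077902 ends in 122 coding bases of its own, from 1 exon at chr11:102891399-102891520 on the minus strand (GENCODE M21, GRCm38). This alternative end is shown 5′ to 3′ because it tells the less abundant form apart, with its own bases in capitals after the 12 coding bases that both forms share, in lower case.
Gfap ENSMUST00000077902: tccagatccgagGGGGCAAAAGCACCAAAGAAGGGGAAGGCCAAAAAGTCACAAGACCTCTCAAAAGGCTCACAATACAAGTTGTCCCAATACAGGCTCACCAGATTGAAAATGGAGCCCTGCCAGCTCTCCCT

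Fgfr3 has several coding transcripts that differ by little. ENSMUST00000164207 holds 3 coding bases, in capitals, at an exon junction that ENSMUST00000067150 lacks (chromosome 5, plus strand, chr5:33732895-33733274, GRCm38). ENSMUST00000202138 leaves out a coding exon of 54 bases at chr5:33728192-33728245, given whole in capitals. Counts were estimated for each of these transcripts from reads that they mostly share.
Fgfr3 ENSMUST00000067150: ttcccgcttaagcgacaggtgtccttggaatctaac
Fgfr3 ENSMUST00000164207: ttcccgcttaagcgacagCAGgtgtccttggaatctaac
Fgfr3 skipped exon: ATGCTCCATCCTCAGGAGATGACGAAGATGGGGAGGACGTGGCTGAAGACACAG

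The 250 bases before the RefSeq start of Gfap (chr11:102897201-102897450, minus strand, GRCm38.p6) are the proximal part of the promoter that is widely used to drive transgenes in astrocytes. They had 55.6% GC and 2 CG pairs, given in capitals, against medians of 52.4% and 6 over 32851 RefSeq windows of this length. The motif TTCNNNGAA, which reads alike on both strands and is bound by STAT factors, was not among these letters and occurred once when the 50 bases after the start were included. Windows were read for 8 of the markers, and those of Aqp4 and Sox9 were left out. Of these 8, which had 10 windows, 2 (Agt and Aldoc) held the motif in the 250 bases before a start, and 7.02% of all windows did. The first count is by gene and the share is by window. For Aldoc the motif was in the window at chr11:78323948-78324197 and not in that at chr11:78322823-78323072. Whether Aqp4 or Sox9 holds it was not tested.
Gfap upstream: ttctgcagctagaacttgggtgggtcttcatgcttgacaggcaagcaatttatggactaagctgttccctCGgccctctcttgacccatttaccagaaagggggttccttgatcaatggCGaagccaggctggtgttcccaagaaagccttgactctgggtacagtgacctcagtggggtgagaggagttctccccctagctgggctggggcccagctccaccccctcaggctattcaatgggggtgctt

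Setting KU55933 against vehicle addresses how astrocyte mRNAs differ between mice given a blocker of ATM and mice given vehicle. Whether ATM was blocked in these hippocampi was not tested. Gfap, Sox9 and Fgfr3 fell in KU55933, by 1.31-fold to 1.35-fold, and the other 7 markers did not pass the test. Calls came from edgeR's quasi-likelihood test over 15481 genes with Benjamini-Hochberg adjustment, at an adjusted p under 0.05. Thus 3 of 10 markers were lower, against 14.6% of all genes tested, and 0 of 10 were higher, against 6.92% (21.6% in either direction). The 0 higher calls stand beside 5 markers with an unadjusted p under 0.05, of which Gjb6 and S100b had higher means in KU55933, and DESeq2 called these 2 higher. In CPM the 2 groups did not overlap for the same 3 markers, against 26.7% of all genes. The median log2 change was -0.05 over the 10 markers and 0.01 over all genes. With an offset that removes, per library, the dependence on GC content and on length, 1 marker, Sox9, was lower (1.3% of all genes) and 0 were higher (0.691%, or 1.99% in either direction), with 2 markers at an unadjusted p under 0.05. With KU55933 1 and 2 both left out, edgeR called 0 of the 10, with 4 at an unadjusted p under 0.05, and 6.91% of all genes (6.24% lower and 0.665% higher). In bulk tissue, fewer astrocytes and less RNA per astrocyte cannot be told apart.

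**Figure D1:**
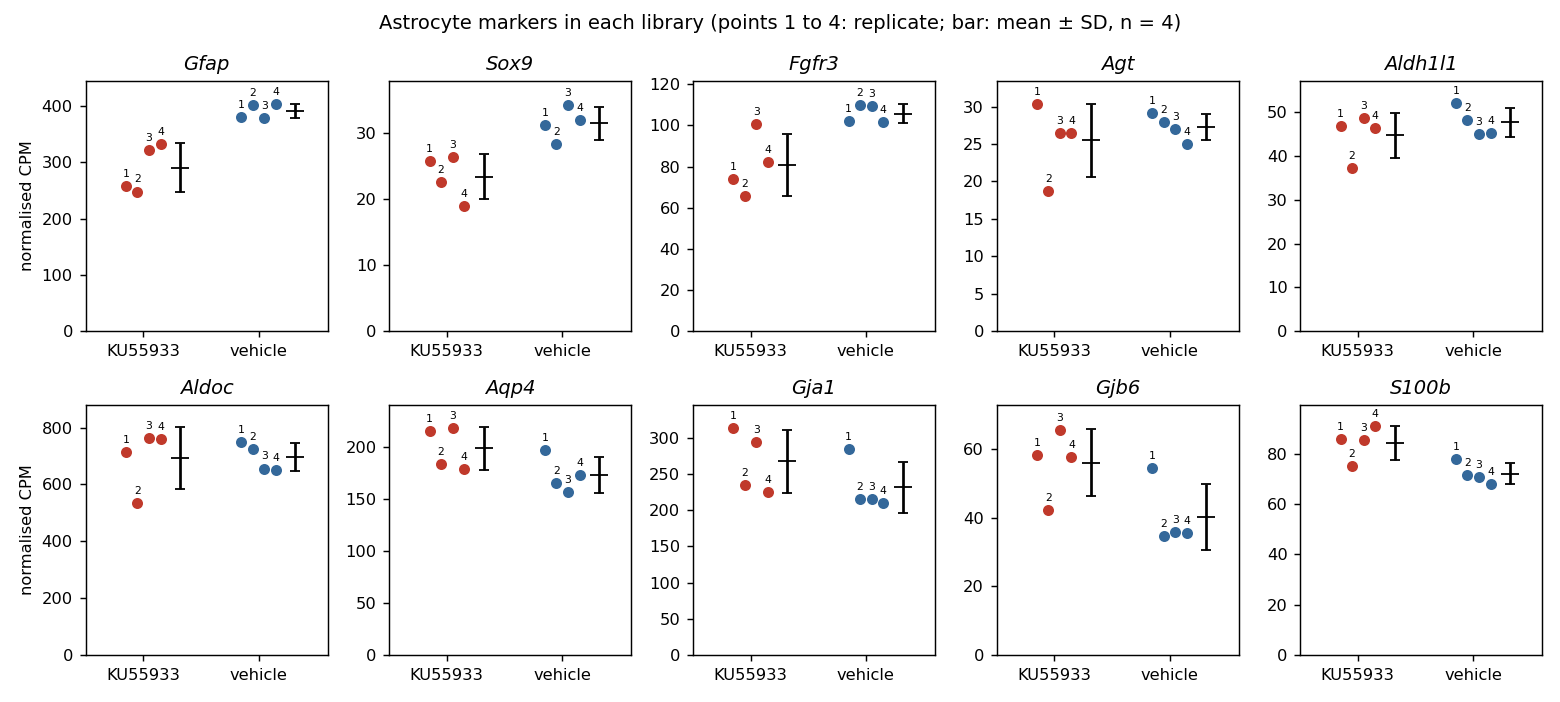
Normalised CPM of the 10 astrocyte markers in each library, with KU55933 left of vehicle, points numbered by replicate and bars for mean ± SD (n = 4). The 4 KU55933 libraries lay below the 4 vehicle libraries for Gfap, Sox9 and Fgfr3, and the groups overlapped for the other 7.

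Gfap (ENSMUSG00000020932) encodes the intermediate filament protein by which astrocytes are most often stained. It had 258, 248, 322 and 332 CPM in KU55933 1 to 4, against 380, 401, 379 and 403 CPM in vehicle 1 to 4. KU55933 1 and 2 were the lowest, KU55933 3 and 4 lay between them and vehicle, and the groups did not overlap. The means were 290 ± 43.3 CPM in KU55933 and 391 ± 12.9 CPM in vehicle (SD, n = 4 each), and Gfap differed by -0.43 ± 0.10 on the log2 scale (SE, adjusted p = 0.0141 by edgeR). The call held with each library left out in turn, with adjusted p up to 0.0423. It ended with the GC and length offset, where the log2 change was -0.22 ± 0.07 (adjusted p = 0.174), and without both KU55933 1 and 2 (-0.25, adjusted p = 0.0555).

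Sox9 (ENSMUSG00000000567), a transcription factor of the glial lineage, had 25.8, 22.6, 26.3 and 18.9 CPM in KU55933 1 to 4, against 31.3, 28.4, 34.3 and 32 CPM in vehicle 1 to 4. KU55933 4 was the lowest, and the groups did not overlap. The means were 23.4 ± 3.43 CPM in KU55933 and 31.5 ± 2.45 CPM in vehicle (SD, n = 4 each). The log2 change was -0.43 ± 0.11 (SE, adjusted p = 0.0225 by edgeR) and, with the GC and length offset, -0.50 ± 0.10 (adjusted p = 0.0413). Sox9 had 49.3% GC, below the 55.2% of Gfap and the 56.0% of Fgfr3. Leaving out KU55933 2, vehicle 3 or vehicle 4 ended the call (adjusted p = 0.0646, 0.0756 and 0.0603). So did leaving out KU55933 1 and 2 together, with a log2 change of -0.47 (adjusted p = 0.0911). The call with the offset ended without KU55933 2 or 4 or vehicle 2, 3 or 4 (adjusted p = 0.134, 0.0588, 0.0672, 0.13 and 0.123), which is 5 of the 8 libraries.

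Fgfr3 (ENSMUSG00000054252) encodes the fibroblast growth factor receptor that marks astrocytes among brain cells. It had 73.8, 65.8, 101 and 82.3 CPM in KU55933 1 to 4, against 102, 110, 109 and 102 CPM in vehicle 1 to 4. KU55933 3 lay next to the lowest vehicle library. The means were 80.7 ± 15.1 CPM in KU55933 and 106 ± 4.59 CPM in vehicle (SD, n = 4 each), and Fgfr3 differed by -0.39 ± 0.12 on the log2 scale (SE, adjusted p = 0.0368 by edgeR). The call ended without KU55933 1, 2 or 4 or vehicle 2, 3 or 4 (adjusted p = 0.0865, 0.0944, 0.0582, 0.0945, 0.098 and 0.068). With the GC and length offset the log2 change was -0.13 ± 0.09 (adjusted p = 0.533). It was -0.20 (adjusted p = 0.24) without KU55933 1 and 2.

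Among the gap junction genes, Gjb6 (ENSMUSG00000040055), which encodes the connexin found mainly in mature grey matter astrocytes, had 58.1, 42.4, 65.6 and 57.8 CPM in KU55933 1 to 4. It had 54.5, 34.7, 35.8 and 35.4 CPM in vehicle 1 to 4. Vehicle 1 lay far above the other vehicle libraries and inside the KU55933 range, so the groups overlapped. The means were 56.0 ± 9.77 CPM in KU55933 and 40.1 ± 9.60 CPM in vehicle (SD, n = 4 each), and the log2 change of 0.48 ± 0.17 did not pass (SE, adjusted p = 0.072 by edgeR). Without vehicle 1 the log2 change was 0.67 (adjusted p = 0.00613), and without KU55933 2 it was 0.59 (adjusted p = 0.044).

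Gja1 (ENSMUSG00000050953), which encodes the other main astrocyte connexin, had 314, 235, 295 and 225 CPM in KU55933 1 to 4, against 285, 215, 216 and 210 CPM in vehicle 1 to 4. Vehicle 1 again stood above the other vehicle libraries, and the groups overlapped. The log2 change was 0.21 ± 0.13 (SE, adjusted p = 0.277 by edgeR), and it passed with no single library left out (adjusted p of 0.0681 to 0.543). The log2 change of Gja1 was 0.33 without vehicle 1 and 0.12 without KU55933 1.

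At the vessel-facing feet, Aqp4 (ENSMUSG00000024411) had 216, 184, 219 and 179 CPM in KU55933 1 to 4, against 198, 166, 157 and 173 CPM in vehicle 1 to 4. The ranges overlapped through vehicle 1 and through KU55933 2 and 4. The log2 change was 0.20 ± 0.10 (SE, adjusted p = 0.151 by edgeR) and, with the GC and length offset, -0.00 ± 0.09 (adjusted p = 0.984).

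S100b (ENSMUSG00000033208), a calcium-binding protein gene of astrocytes and some oligodendrocyte lineage cells, had 85.8, 75.2, 85.4 and 91.0 CPM in KU55933 1 to 4. It had 77.8, 71.7, 70.8 and 68.2 CPM in vehicle 1 to 4. KU55933 2 lay below vehicle 1, and the other KU55933 libraries lay above every vehicle library. The log2 change of 0.23 ± 0.08 did not pass (SE, adjusted p = 0.0592 by edgeR). It passed without KU55933 2 (adjusted p = 0.0349), without vehicle 1 (0.0336) and with upper-quartile scaling (0.04), where edgeR then called 1 marker higher and 3 lower.

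The metabolic markers showed no called difference. Aldoc (ENSMUSG00000017390), the brain form of the glycolytic enzyme aldolase, had 714, 534, 764 and 761 CPM in KU55933 1 to 4, against 748, 724, 656 and 651 CPM in vehicle 1 to 4. KU55933 2 was the lowest of all 8 libraries. The means were 693 ± 108 CPM in KU55933 and 695 ± 49.0 CPM in vehicle (SD, n = 4 each, adjusted p = 0.986 by edgeR). Aldh1l1 (ENSMUSG00000030088), a folate enzyme gene used as a general astrocyte marker, had 46.7, 37.2, 48.7 and 46.3 CPM in KU55933 1 to 4. It had 52.1, 48.2, 45.0 and 45.2 CPM in vehicle 1 to 4, and its log2 change was -0.09 ± 0.09 (SE, adjusted p = 0.509 by edgeR).

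Agt (ENSMUSG00000031980), the precursor of the angiotensin peptides, which astrocytes make in the brain, had 30.3, 18.7, 26.5 and 26.5 CPM in KU55933 1 to 4, against 29.1, 27.9, 27.0 and 25 CPM in vehicle 1 to 4. KU55933 2 alone lay outside the vehicle range on the low side and KU55933 1 on the high side. The log2 change was -0.10 ± 0.13 (SE, adjusted p = 0.613 by edgeR). Without KU55933 1 it was -0.19 and without KU55933 2 it was 0.02.

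**Figure D2:**
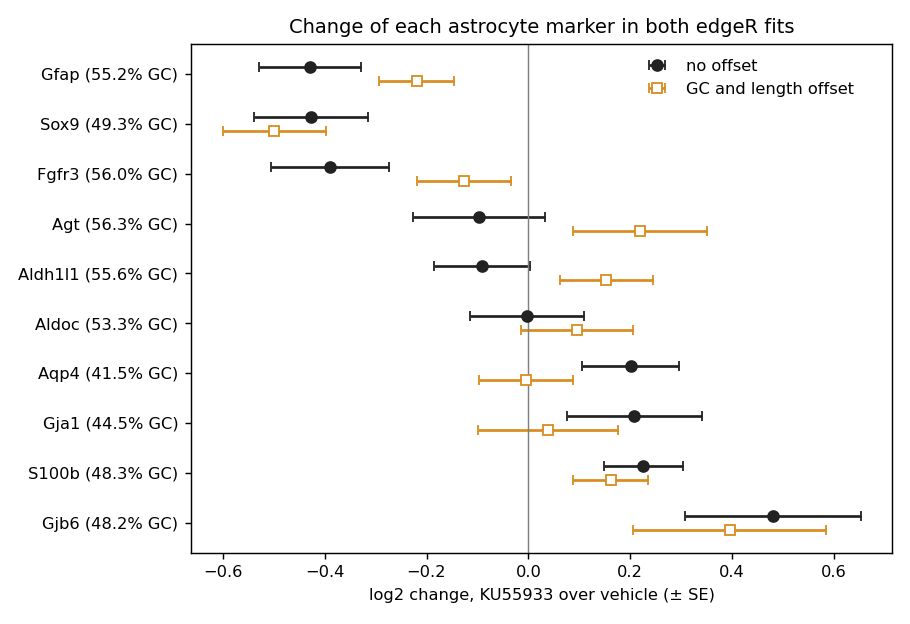
Log2 change of each astrocyte marker in KU55933 over vehicle with its SE, from edgeR without an offset (filled circles) and with the GC and length offset (open squares), ordered by the first. Sox9 lay at -0.43 and -0.50, while Gfap moved to -0.22, Fgfr3 to -0.13 and Aqp4 to zero.

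Library by library the markers did not move as 1 block. KU55933 2 had the lowest value of its group for 7 of the 10 markers (Gfap, Aldh1l1, Gjb6, Aldoc, S100b, Fgfr3 and Agt), and KU55933 3 had the highest for 6 (Aqp4, Aldh1l1, Gjb6, Aldoc, Sox9 and Fgfr3). Vehicle 1 had the highest value of its group for 7 (Aqp4, Aldh1l1, Gja1, Gjb6, Aldoc, S100b and Agt). The mean log2 CPM over the 10 markers was 6.72, 6.41, 6.81 and 6.65 in KU55933 1 to 4, against 6.82, 6.66, 6.64 and 6.62 in vehicle 1 to 4, so the groups overlapped. The markers were also more scattered in KU55933 for 9 of 10 genes. How many of all genes were so was not computed, and no trait of the markers is read from this. The coefficient of variation of Gfap was 14.9% in KU55933 and 3.29% in vehicle, and that of Fgfr3 was 18.6% in KU55933 and 4.34% in vehicle. Gjb6 was the exception, with 17.5% in KU55933 and 23.9% in vehicle.

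On a per-length scale (TPM computed from the counts and GENCODE M21 transcript lengths), Aldoc was the most abundant marker in both groups, at 901 ± 111 TPM in KU55933 and 891 ± 55.3 TPM in vehicle (SD, n = 4 each). Gfap followed with 268 ± 36.8 TPM in KU55933 and 355 ± 8.86 TPM in vehicle, then Gja1 with 212 ± 30.9 TPM in KU55933 and 181 ± 28.3 TPM in vehicle. The KU55933 libraries of Gfap and Gja1 overlapped on this scale, whereas those of vehicle did not. S100b came next, at 138 ± 6.79 TPM in KU55933 and 117 ± 6.85 TPM in vehicle, then Aqp4, between 86.9 and 111 TPM in KU55933 and between 78.9 and 101 TPM in vehicle. Gjb6 stood before Fgfr3 in KU55933, at 80.5 ± 12.4 and 59.0 ± 10.5 TPM, and after it in vehicle, at 56.2 ± 15.2 and 69.2 ± 2.87 TPM. These 2 neighbours overlapped in both groups, and Aqp4 and Gjb6 overlapped in KU55933. Aldh1l1 and Agt overlapped as well, and Sox9 was the least abundant, at 13.8 ± 2.00 TPM in KU55933 and 18.3 ± 1.61 TPM in vehicle. Between the groups, Fgfr3 overlapped in TPM although not in CPM. It had 73.34 TPM in KU55933 3, against 67.06 to 73.31 TPM in vehicle.

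Of the 42 transcripts listed for the 10 genes, 32 could be tested, 2 were lower in KU55933, against 5.7% of 45343 transcripts tested, and 0 were higher, against 1.06% (6.76% in either direction). Of the 32, 6 had an unadjusted p under 0.05, and edgeR was the only tool run per transcript. Both calls were transcripts of Gfap. ENSMUST00000067444 had 239, 226, 299 and 298 CPM in KU55933 1 to 4, against 363, 382, 351 and 363 CPM in vehicle 1 to 4 (log2 change -0.46 ± 0.11 SE, adjusted p = 0.039 by edgeR). ENSMUST00000077902 had 21.0, 19.3, 23.8 and 24.0 CPM in KU55933 1 to 4, against 31.4, 31.0, 30.2 and 31.0 CPM in vehicle 1 to 4 (-0.49 ± 0.09, adjusted p = 0.0192). For each of them the groups did not overlap. The second made up 7.68% ± 0.341 of Gfap counts in KU55933 and 7.81% ± 0.200 in vehicle (SD, n = 4 each), a difference smaller than the spread between libraries. The call of ENSMUST00000067444 ended without KU55933 1 or 2 or any 1 vehicle library (adjusted p = 0.144, 0.13, 0.071, 0.0971, 0.0933 and 0.0973). That of ENSMUST00000077902 ended without KU55933 1 or 2 or vehicle 3 or 4 (0.0821, 0.0879, 0.0599 and 0.0581). Both calls also ended with RLE scaling (adjusted p = 0.109 and 0.074) and with the replicate block (0.0934 and 0.0641).

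The transcripts of Fgfr3 had unlike values. ENSMUST00000067150 had 0, 0, 0 and 121 estimated counts in KU55933 1 to 4, against 551, 779, 950 and 1379 in vehicle 1 to 4. The groups did not overlap, yet edgeR did not call it (log2 change -4.74 ± 1.53 SE, adjusted p = 0.12) unless KU55933 4 was left out (adjusted p = 0.00707). ENSMUST00000164207, which differs from it in the coding part by the 3 capital bases above and starts later, had 20.6 ± 6.41 CPM in KU55933 and 25.8 ± 6.30 CPM in vehicle (SD, n = 4 each). ENSMUST00000202138, without the 54-base exon, had 46.7 ± 5.99 CPM in KU55933 and 40.8 ± 13.6 CPM in vehicle. It made up 59.1% ± 7.54 of Fgfr3 counts in KU55933 and 37.8% ± 11.4 in vehicle (SD, n = 4 each), with no overlap. Whether reads were moved between these near-identical transcripts by the estimation was not tested, so the split within Fgfr3 is uncertain.

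The make-up of Aldoc and Gjb6 by transcript is given next. The Aldoc transcript ENSMUST00000102478 took 64.4% ± 3.72 of the gene's counts in KU55933 and 70.2% ± 1.5 in vehicle, and ENSMUST00000017534, which has the same coding sequence and longer ends, took 33.2% ± 2.98 in KU55933 and 28.5% ± 1.4 in vehicle (SD, n = 4 each). Both shares overlapped between the groups, and neither transcript passed (adjusted p = 0.629 and 0.567 by edgeR). The Gjb6 transcript ENSMUST00000224544, annotated as a retained intron, had 10.2, 12.7, 18.7 and 16.1 CPM in KU55933 1 to 4, against 12.1, 7.14, 8.38 and 5.27 CPM in vehicle 1 to 4. Its log2 change of 0.81 ± 0.28 did not pass (SE, adjusted p = 0.144 by edgeR), and the coding transcript ENSMUST00000039380 had 0.33 ± 0.21 (adjusted p = 0.435). The main transcripts of Aldh1l1 (ENSMUST00000032175), Gja1 (ENSMUST00000068581) and Aqp4 (ENSMUST00000079081) held 82.8%, 99.4% and 98.5% of their genes' counts and did not pass (log2 changes of -0.08, 0.17 and 0.17). The same held for the smaller Aldh1l1 transcript ENSMUST00000130418 (-0.31, 11% of the counts). Sox9, S100b and Agt were listed with 1 transcript each. The Sox9 transcript, ENSMUST00000000579, missed the threshold over transcripts (adjusted p = 0.0812), and those of S100b (ENSMUST00000036387) and Agt (ENSMUST00000063278) had adjusted p of 0.266 and 0.73.

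**Figure D3:**
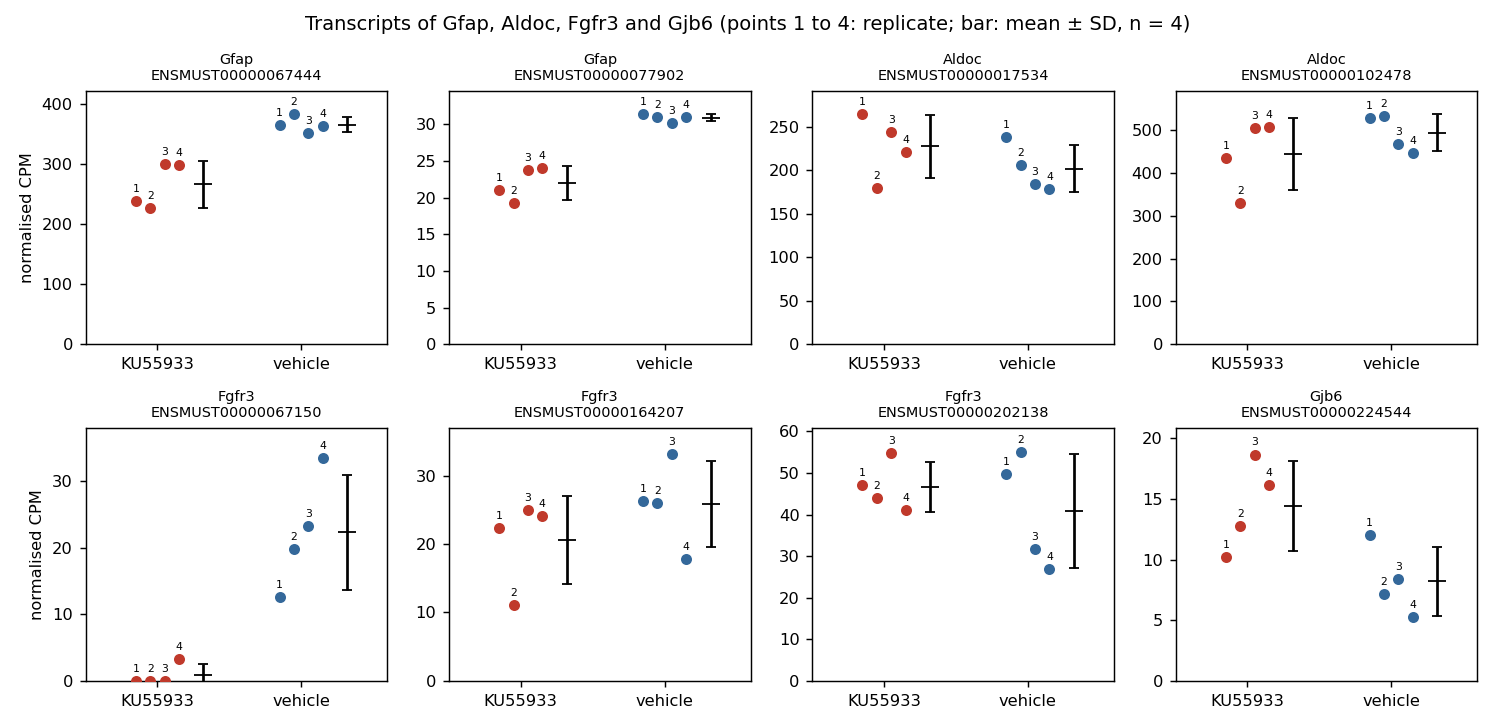
Normalised CPM of 8 transcripts of Gfap, Aldoc, Fgfr3 and Gjb6 in each library, with KU55933 left of vehicle, points numbered by replicate and bars for mean ± SD (n = 4). Both Gfap transcripts were lower in every KU55933 library, and ENSMUST00000067150 of Fgfr3 was at 0 in 3 of the 4.

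The GC content of the members ran from 41.5% for Aqp4 to 56.3% for Agt. The 4 genes with positive log2 changes (Aqp4, Gja1, S100b and Gjb6) had 41.5 to 48.3% GC, and the 5 genes over 53% GC (Aldoc, Gfap, Aldh1l1, Fgfr3 and Agt) had log2 changes of zero or below. Sox9 lay between these ranges, at 49.3% GC with a log2 change of -0.43.

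**Figure D4:**
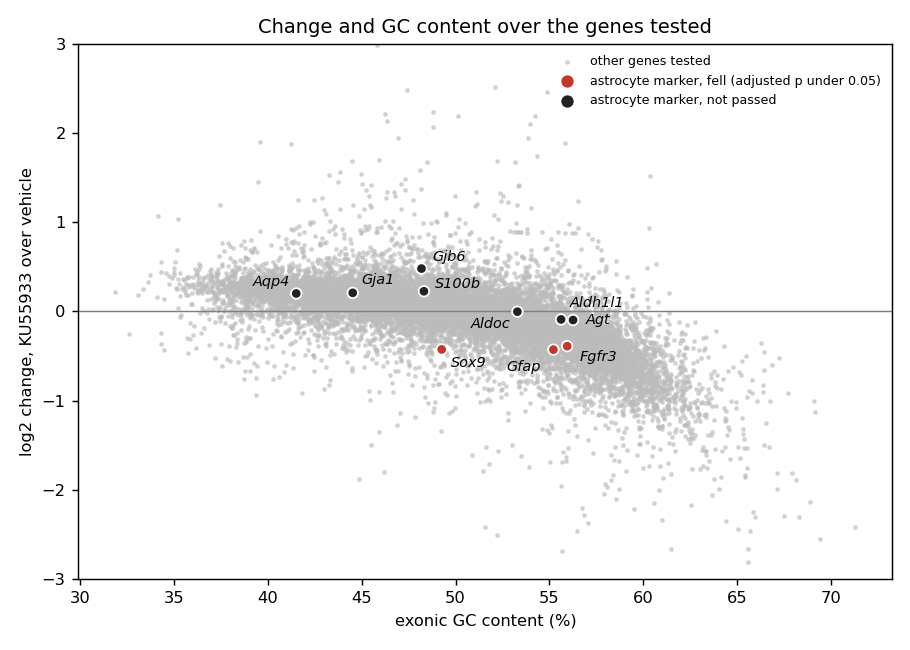
Log2 change in KU55933 over vehicle (vertical, cut at 3 log2 units in either direction, beyond which lay 25 genes) against exonic GC content in percent, for all genes tested with a known GC content. The astrocyte markers are named, with those that fell in red. Aqp4 lay at 41.5% GC with a log2 change of 0.20, and Gfap at 55.2% with -0.43.

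Other astrocyte genes were read from lists by function, whose median log2 changes lay between -0.45 and 0.32 over the 14 lists, against 0.01 over all genes tested. Their counts below stand beside the 14.6% of all genes that were lower and the 6.92% that were higher, and nothing particular to a list is read from them. In the list for glutamate and ion clearance, 1 of 12 genes rose, 2 fell and 9 did not pass. The potassium channel gene Kcnj16 rose (log2 change 0.49 ± 0.15 SE, adjusted p = 0.0383 by edgeR), and the glutamine transporter gene Slc38a3 (-0.27, adjusted p = 0.0319) and the serine and glycine carrier gene Slc7a10 (-0.27, adjusted p = 0.0376) fell. The glutamate transporter genes Slc1a2 and Slc1a3 and the glutamine synthetase gene Glul did not pass, with log2 changes of 0.16, 0.21 and 0.09 (adjusted p = 0.427, 0.12 and 0.631). All 3 calls ended without KU55933 2 or 3 or vehicle 2, 3 or 4, and those of Kcnj16 and Slc7a10 also without KU55933 1 (adjusted p up to 0.121). With the GC and length offset 0 of the 12 passed in edgeR, and the log2 changes of Slc38a3 and Slc7a10 turned positive (0.02 and 0.12), while that of Kcnj16 was 0.30.

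Of 9 genes that anchor endfeet or mark astrocyte membranes, 2 fell and 7 did not pass. The receptor gene Gpr37l1 fell to 144 ± 18.5 CPM in KU55933, against 197 ± 13.9 CPM in vehicle (SD, n = 4 each, adjusted p = 0.00983 by edgeR). Among 21 genes of astrocyte metabolism, 2 rose and 2 fell. The lipid carrier gene Apoe fell to 635 ± 130 CPM in KU55933, against 1108 ± 112 CPM in vehicle (adjusted p = 0.00402), and the fatty acid transporter gene Slc27a1 fell with a log2 change of -0.81 (adjusted p = 0.0099). The fatty acid binding protein gene Fabp7 rose to 44.7 ± 6.74 CPM in KU55933, against 31.5 ± 2.30 CPM in vehicle (adjusted p = 0.0109), as did Mgst1 (0.41, adjusted p = 0.0464). In edgeR with the GC and length offset, 0 genes of these lists passed and the log2 changes of Gpr37l1, Apoe, Slc27a1, Fabp7 and Mgst1 were -0.09, -0.07, -0.38, 0.31 and 0.28. Mgst1 lost its call without KU55933 1 or 4 or any 1 vehicle library (adjusted p up to 0.118).

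Of 12 secreted and synapse-shaping genes, the matrix genes Bcan and Ncan fell (log2 changes -0.76 and -0.28, adjusted p = 0.000959 and 0.048 by edgeR) and 10 did not pass. The call of Ncan ended with any 1 of the 8 libraries left out (adjusted p up to 0.124). Of 14 transcription factor genes, 5 fell and 1 rose. Id3, an inhibitor of helix-loop-helix factors, fell to 14.1 ± 3.21 CPM in KU55933, against 30.6 ± 5.50 CPM in vehicle (SD, n = 4 each, adjusted p = 0.00202). Nfix and Lhx2 fell (-0.72 and -0.58, adjusted p = 0.00118 and 0.00274), as did Id1 and Hes5, which are named here after their values were seen, while Id4 rose (0.31, adjusted p = 0.0291). The Id4 call ended without KU55933 1 or 2 or vehicle 2, 3 or 4 (adjusted p up to 0.09). With the GC and length offset Id3 alone of these 26 genes passed in edgeR (-0.84, adjusted p = 0.0104). The log2 changes of Bcan, Ncan, Nfix, Lhx2 and Id4 were then -0.06, -0.09, -0.33, -0.03 and 0.11.

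Around the connexin genes, 3 of 10 other connexin and pannexin genes fell (14.6% of all genes) and 0 rose (6.92%), where Panx2 fell to 45.1 ± 8.51 CPM in KU55933, against 96.2 ± 4.22 CPM in vehicle (SD, n = 4 each, adjusted p = 0.000504 by edgeR). The endothelial connexin gene Gja4 fell as well (-0.63, adjusted p = 0.0325), and its call ended without KU55933 1 or 2 or vehicle 2, 3 or 4 (adjusted p up to 0.104). Of 6 genes related to Fgfr3, Fgfr1 and Fgfrl1 fell (-0.40 and -0.60, adjusted p = 0.00234 and 0.0044) and 4 did not pass. Of 8 angiotensin pathway genes that could be tested, the renin receptor gene Atp6ap2 rose (0.34, adjusted p = 0.0238) and 7 did not pass. Its call ended without vehicle 2, 3 or 4 (adjusted p up to 0.074). With the GC and length offset 0 genes of these 3 lists passed in edgeR, and Panx2, Gja4, Fgfr1, Fgfrl1 and Atp6ap2 had log2 changes of -0.15, -0.06, -0.17, -0.14 and 0.15.

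Genes that mark reactive astrocytes in mouse were read from 3 lists. Of 11 pan-reactive genes that could be tested, the filament gene Vim fell to 32.5 ± 1.88 CPM in KU55933, against 41.7 ± 6.40 CPM in vehicle (SD, n = 4 each, adjusted p = 0.0356 by edgeR), and 10 did not pass. The same gene was the 1 called among 3 intermediate filament genes, and its call ended without KU55933 2, 3 or 4 or vehicle 3 or 4, where adjusted p was up to 0.106. Of 11 genes of the list named A1, the histocompatibility genes H2-D1 and H2-T23 fell (-0.46 and -0.42, adjusted p = 0.00576 and 0.0387). Of 10 tested genes of the list named A2, S100a10, an annexin partner, rose to 13.5 ± 1.18 CPM in KU55933, against 9.77 ± 1.06 CPM in vehicle (adjusted p = 0.015). H2-T23 lost its call without KU55933 1, 2 or 3 or vehicle 2, 3 or 4 (adjusted p up to 0.116). With the GC and length offset none of these genes passed in edgeR, 0 of 32 listings in all. The log2 change of S100a10 was then 0.46 (adjusted p = 0.0533), and those of Vim, H2-D1 and H2-T23 were -0.24, -0.19 and -0.26.

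**Figure D5:**
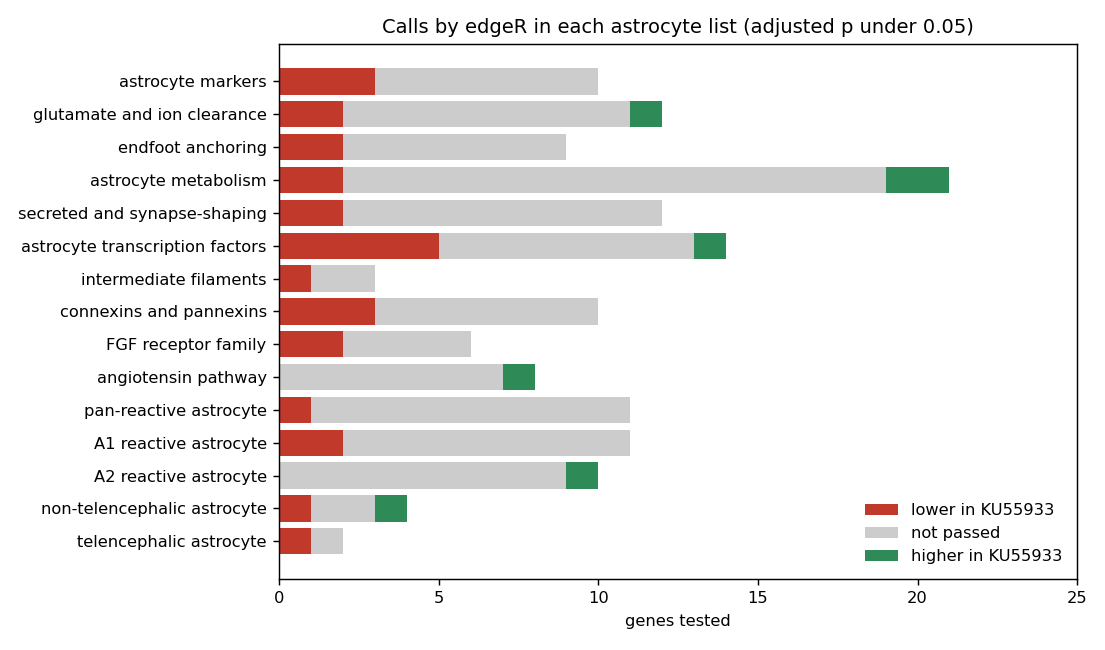
Number of tested genes in each astrocyte list that were lower in KU55933 (red), did not pass (grey) or were higher in KU55933 (green) by edgeR at an adjusted p under 0.05. Of all genes tested, 14.6% were lower and 6.92% higher. With the GC and length offset these shares were 1.3% and 0.691%. The calls then numbered 1 of 10 among the astrocyte markers (Sox9), 1 of 14 among transcription factors (Id3) and 1 of 4 among non-telencephalic astrocyte genes (Itih3).

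Markers of astrocytes by region and of other cells were read in the same way. Their counts stand beside 14.6% of all genes lower and 6.92% higher, and nothing particular to a list is read from them. Of 4 genes that mark astrocytes outside the telencephalon, Itih3 rose (0.33, adjusted p = 0.0179 by edgeR) and Slc6a9 fell (-0.35, adjusted p = 0.0358), and of 2 telencephalic ones Lhx2 fell. The summed level of these 2 was 116 to 169 CPM in KU55933 and 175 to 196 CPM in vehicle, with no overlap. That of the 4 was 455 to 607 CPM in KU55933 and 415 to 538 CPM in vehicle. As single genes, 26.7% of all genes did not overlap between the groups. Neither of the 2 telencephalic genes passed by edgeR with the GC and length offset, and their median log2 change moved from -0.45 to 0.03. Itih3 passed with the GC and length offset too (0.35, adjusted p = 0.0464). Its call ended without vehicle 2 or 4 (adjusted p up to 0.0547) and, with the offset, without any 1 library other than vehicle 1 (up to 0.15). Slc6a9 lost its call without KU55933 1, 2 or 4 or vehicle 1, 2 or 3 (up to 0.1). Subcortical neuron genes summed to 90.2 to 154 CPM in KU55933 and 93.8 to 105 CPM in vehicle. Of these 6 genes Slc17a6 and Tcf7l2 rose (1.28 and 0.82, adjusted p = 0.0112 and 0.0279), and the call of Tcf7l2 ended without KU55933 1 or 4 or vehicle 2, 3 or 4 (adjusted p up to 0.0835). The choroid plexus gene Kcnj13 was the 1 of 8 called higher (3.27, adjusted p = 0.0489), and its call ended without KU55933 1 or 2 or any 1 vehicle library (up to 0.139). In every library each of these lists had a summed level above 0, and 0 of their genes were at 0 throughout. Their part in the results for the astrocyte markers was not tested.

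The same shares, 14.6% of all genes lower and 6.92% higher, stand beside the next counts, from which nothing particular to a cell type is read. Among the general neuron markers 1 of 7 rose (Map2, 0.35) and 3 fell (Rbfox3, Slc17a7 and Tubb3, -0.85, -0.33 and -0.45). For oligodendrocyte precursor genes 2 of 5 fell (Cspg4 and Olig1, -0.64 and -0.97), and of 8 oligodendrocyte genes none was called, with Mbp at -0.32. Microglia genes held 2 falls in 10 (C1qc and C1qa, -0.77 and -0.50), mural genes 1 fall in 6 (Pdgfrb, -0.47), and ependymal genes 0 calls in 5, with Foxj1 and Rarres2 at -0.24 and -0.03. Endothelial genes held 2 falls and 1 rise in 7 (Cldn5, Tie1 and Ly6c1, -0.93, -0.66 and 0.40). These calls had adjusted p from 0.000504 for Rbfox3 to 0.0425 for Tubb3 by edgeR. Leaving out single libraries ended those of Map2 and Tubb3 (KU55933 1, 2 or 3 and vehicle 2 or 3, for Map2 also vehicle 4 and for Tubb3 also vehicle 1), Ly6c1 (KU55933 1, 3 or 4 and vehicle 2, 3 or 4) and C1qa (KU55933 1 and vehicle 2), with adjusted p up to 0.107, 0.111, 0.0942 and 0.0576. With the GC and length offset Rbfox3 was lower by edgeR (-0.42, adjusted p = 0.0114) and the other 47 tested genes of these lists were not called. Of all genes 1.3% were then lower and 0.691% higher. The call of Rbfox3 with the offset ended without KU55933 2 (adjusted p = 0.0553). Slc17a7 and C1qa with the offset turned positive (0.14 and 0.13), Tubb3 was at -0.00, and Olig1, Cspg4, Cldn5 and Tie1 were at -0.15, -0.15, -0.16 and -0.21. Foxj1 turned positive too (0.58, adjusted p = 0.196) and passed when the replicate block was added to the offset (0.62, adjusted p = 0.0191).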

How the data were processed

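The authors deposited 1 table of estimated counts per transcript for 8 libraries of polyadenylated RNA (stranded kit, per the labels' protocols). Salmon 1.4.0, FastQC 0.11.9 and DESeq2 1.32.0 and the build GRCm39 are named in the submitters' processing notes. Transcript IDs were matched to GENCODE M21 (GRCm38) for exon sequence, GC content and length, and 99.7% matched. The deposited expected counts were rounded to whole numbers and summed by gene ID. An estimated count splits reads among similar transcripts, so transcript values are less certain than gene sums.

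Genes passing edgeR's expression filter were tested with edgeR 4.0.16 (R 4.3.3, limma 3.58.1), TMM scaling and the quasi-likelihood test, KU55933 over vehicle, with Benjamini-Hochberg adjustment over the 15481 genes tested. A second fit added per-library offsets, fitted from each gene's deviation from its mean log2 CPM (prior count 2) by splines on GC content (6 degrees of freedom) and length (5). The scripts were tested on simulated data. DESeq2 1.42.0, other scalings and filters, a replicate block and left-out libraries were alternatives.

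The 10 markers and all lists were chosen with earlier results of these data known. Beside the markers, up to 3 called genes per direction and list with the smallest p are named, or the 2 of highest mean CPM where none was called. Slc1a2, Slc1a3 and Glul are always named, as are called transcripts and those holding at least 10% of a marker's counts. A few genes that the rule would name and 1 sequence are not reported here, and list counts include those genes. The labels give the libraries as 4 mice per group, and p-values set the group difference against the spread between these mice. No 2 libraries of a group agreed within sampling noise. The extraction text also speaks of other brain regions, while the samples are labelled hippocampus.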

Additional observations from a re-analysis of the deposited data

Results flagged for a closer look

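In 6 of 112 groups of 4 libraries checked, 1 library lay farther from the others than Dixon's critical value for the gap over the range. Chance flags about 1 group in 20, so this number is near what chance gives. Among the astrocyte markers these were both connexin genes, each in vehicle 1. Gja1 had 285 CPM in vehicle 1 and 210 to 216 CPM in the other vehicle libraries. Gjb6 had 54.5 CPM in vehicle 1 and 34.7 to 35.8 CPM in the others.

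Among other named genes, vehicle 1 was also high for the neuron gene Map2, with 1486 CPM against 1167 to 1201 CPM in the other vehicle libraries. It was high for Tcf7l2 as well, with 7.46 CPM against 5.09 to 5.30 CPM. KU55933 1 had 301 CPM of Atp6ap2, against 239 to 250 CPM in the other KU55933 libraries. Vehicle 4 had 6.89 CPM of Rarres2, against 7.41 to 7.52 CPM in the other vehicle libraries.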

How the results depend on the processing

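Of all genes 3338 were called (1071 higher, 2267 lower), with 3 markers lower, 0 higher and 2 transcripts lower. With an adjusted p under 0.1 there were 5085 calls, 2172 higher, and 2 markers higher. Upper-quartile scaling gave 1 marker higher, no filter 692 genes higher, and DESeq2 1823 genes and 2 markers higher. RLE scaling gave 0 transcripts lower. The GC and length offset gave 308 calls, 107 higher and 201 lower, and 1 marker lower. Without KU55933 1 and 2 there were 1090 calls, 105 higher and 985 lower, and 0 markers lower. Same-numbered libraries correlated at 0.29, 0.08, 0.04 and 0.20 in their deviations from group means, and differently numbered ones at -0.22 to 0.11. These values do not settle whether the numbers mark pairs. The main fit took none, and the replicate block is given as an alternative. The replicate block gave 4444 calls, 1720 genes higher, 1 marker higher and 0 transcripts lower. With the offset the block gave 821 calls, 361 higher and 460 lower, and 1 marker lower. Leaving out 1 library gave 1597 to 4348 calls, 151 to 1790 higher and 1446 to 2558 lower, with 0 to 2 markers higher and 1 to 3 lower, 0 to 3 transcripts lower and 0 to 1 higher. With the offset the ranges were 78 to 746 calls, 24 to 352 higher and 52 to 394 lower, with 0 to 1 markers higher and 0 to 1 lower. The cause of these moves was not tested.

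Log2 changes took the other sign with the offset, and with the offset and replicate block, for Aqp4 (-0.00484, -0.00954), Aldh1l1 (0.15, 0.15), Aldoc (0.0957, 0.0903), Agt (0.22, 0.21), Slc1a2 (-0.0256, -0.0409), Slc38a3 (0.0233, 0.0192), Slc7a10 (0.12, 0.12), Slc17a7 (0.14, 0.13), C1qa (0.13, 0.14), Foxj1 (0.58, 0.62, the second past the threshold at adjusted p = 0.0191 by edgeR) and Rarres2 (0.0834, 0.0827). Aldoc had 0.000167 with RLE, 0.00157 with upper-quartile scaling and 0.00105 with DESeq2. Without KU55933 1 and 2, Aldoc had 0.14, Aldh1l1 0.00025 and Mbp 0.00497. Leaving out single libraries crossed zero for Aldoc (-0.0536 to 0.10), Agt (-0.19 to 0.0223) and Rarres2 (-0.0727 to 0.0195). With the offset it did so for Aqp4 (-0.0735 to 0.0571), Gja1 (-0.0404 to 0.15), Slc1a2 (-0.11 to 0.0674), Glul (-0.0579 to 0.14), Slc38a3 (-0.0331 to 0.0841), Lhx2 (-0.0755 to 0.0391), Slc6a9 (-0.11 to 0.0485), Tubb3 (-0.0692 to 0.0823) and Mbp (-0.30 to 0.15).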
